A study of Rattus norvegicus with 6 samples.

Results

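The genes described here are 10 targets of Wnt signaling and markers of the crypt stem cell, compared between the colons of S.LEW congenic and S rats. They fall into negative-feedback targets (Axin2, Rnf43, Znrf3 and Notum), stem cell markers (Lgr5 and Ascl2) and other crypt and growth targets (Ephb2, Sox9, Myc and Ccnd1). The members were found through the accession of each array probe that is not a control, matched to RefSeq genes of the GRCr8 assembly. Of the 10 genes, 8 were matched by 9 of the 30367 probes on the array, while Znrf3 and Sox9 were not matched by any accession and are not analysed here. The authors' normalized table holds 8 of the 9 probes, 1 for each of the 8 genes, among 23997 probes in all.

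Colon RNA came from 3 male rats of the S.LEW(10)x12x2x3x5 congenic strain (C1, C2 and C3) and 3 male Dahl salt-sensitive (SS/Jr, S) rats (S1, S2 and S3), with 1 single-color Agilent array per rat. S rats are inbred and hypertensive, and their congenic partner carries a Lewis (LEW) segment of chromosome 10 in the S genome, which holds Rffl as its one protein-coding gene in the study's description. All 6 rats ate a 0.3% NaCl diet, received azoxymethane (AOM), a colon carcinogen, at 15 mg per kg in 2 weekly injections from 6 weeks of age, and were 30 weeks old at harvest. The labels call the tissue colon with induced tumors for both strains alike. There was no group without carcinogen, and the sources used here do not say how much tumor the RNA held. Values of single rats are given below in the order C1, C2, C3 and S1, S2, S3.

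In the colon the Wnt signal is strongest at the crypt base, where stem cells divide and renew the epithelium. Wnt ligands bind Frizzled and Lrp receptors, beta-catenin then escapes the destruction complex built on Apc and Axin, and it switches on target genes with TCF/LEF factors. Several of these targets shut the pathway down again: Axin2 rebuilds the destruction complex, Rnf43 and Znrf3 remove Frizzled from the cell surface, and Notum inactivates the secreted ligand. Loss of Apc or activation of beta-catenin is the usual first step of colorectal tumors, in AOM-treated rodents as in humans, and the same target genes are widely used to read it.

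The tissue label was checked first. All 10 epithelial markers, such as Epcam, Cdh1 and Vil1, were well above background on all 6 arrays, as were all 9 smooth muscle markers. One array stood apart from its strain, since S2 had a Pearson r of at least 0.9669 with each congenic array and at most 0.9366 with the other S arrays over all probes. The lymphoid marker list differed in the same way. Its mean over the 10 tested of 18 listed genes, each centred on its mean over the arrays, was 3.22 in S1 and 2.89 in S3 on the log2 scale, against -1.47 in S2 and -1.60 to -1.48 in the congenic rats, and 7 of the 10 passed the cut-offs described below as lower in that strain. Each of these 10 was well above background on at least 1 congenic array, and 6 further genes on the array, among them Cd3e and Cd79b, were not so on any congenic array and are outside the table. The mean of the 9 smooth muscle markers was low in the same S rats, at -1.57 in S1 and -0.65 in S3 beside 0.72 in S2 and 0.41 to 0.66 in the congenic rats, a strain difference of 0.998, and all 9 genes were above 0. The part of lymphoid and muscle tissue in the results below was not tested, and the values of most genes named below are also given without S2. S2 was singled out from these same data for its likeness to the congenic arrays. Differences and p-values without it therefore describe the remaining rats and are not a test of the strains. Values are the authors' quantile-normalized log2 signals, and since tissue was measured in bulk, fewer cells of a type and less RNA per cell cannot be told apart.

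Rnf43, a membrane ubiquitin ligase that clears Frizzled receptors, was the feedback target with the clearest difference. The congenic rats read 7.59, 7.53 and 6.84 on the log2 scale and the S rats 6.09, 6.74 and 5.89. The lowest congenic rat, C3, lay just above the highest S rat, S2, so that the strains did not overlap. The means were 7.32 ± 0.41 (SD, n = 3) and 6.24 ± 0.44 (SD, n = 3), a log2 difference of 1.08 (SE, the standard error, 0.32) or 2.11-fold, with an unadjusted p of 0.0131 and an adjusted p of 0.308. The two-sided exact permutation test gave p = 0.10, and no smaller value is possible for 3 rats against 3. Without S2 the log2 difference was 1.33, and without C1, C2 or S3 it fell under 2-fold (0.94, 0.98 and 0.90).

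Axin2, the scaffold whose transcript is the most widely used readout of beta-catenin activity, differed less. Signals (log2) were 6.65, 6.95 and 6.41 for the congenic and 6.54, 6.03 and 6.23 for the S rats. S1 lay inside the congenic range, and the log2 difference of 0.40 (SE 0.23, limma adjusted p = 0.460) had a 95% interval from -0.15 to 0.96 and was 0.28 without S2. In this fit a 2-fold rise of Axin2 lay just outside the interval, while no difference was inside it. With a rat left out the log2 difference ranged from 0.26 (SE 0.26) without C2 to 0.54 (SE 0.24) without S1, so a 2-fold rise is not excluded across fits.

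Notum, a secreted enzyme that strips the lipid from Wnt ligands, was near the lower end of the measurable range and was not well above background in C2. On the log2 scale it read 4.98, 4.79 and 5.37 in the congenic strain and 3.77, 5.23 and 4.19 in the S strain. S1 and S3 were below every congenic rat, whereas S2 was second only to C3. The log2 difference was 0.65 (SE 0.40, limma adjusted p = 0.485), and it was 1.07 without S2 (limma adjusted p = 0.0343) and 0.34 without S1. It was 0.41 after scaling to the 75th percentile and 0.22 with normexp, another background correction. The dimmest signal well above background was 4.50 to 5.62 on the congenic arrays and 3.44 to 4.13 on the S arrays, so these values of Notum lie near a limit that differed between the strains. As C2 and C3 were read in a scan of their own, strain and scan cannot be fully told apart in this limit.

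The upstream windows of 3 of these genes are shown because Axin2 is the classic direct target and Rnf43 and Ephb2 were the genes past the cut-offs. They are RefSeq promoter windows of GRCr8, from 250 bases before to 50 bases after the start of the gene, printed 5′ to 3′ on the strand of the gene. Axin2 and Rnf43 lie on chromosome 10, as the Lewis segment does, but are not the gene that the study places in it. Capitals mark the TCF/LEF letters searched, CTTTGAT and CTTTGAA on either strand.
Axin2, chr10:94398535-94398834, plus strand: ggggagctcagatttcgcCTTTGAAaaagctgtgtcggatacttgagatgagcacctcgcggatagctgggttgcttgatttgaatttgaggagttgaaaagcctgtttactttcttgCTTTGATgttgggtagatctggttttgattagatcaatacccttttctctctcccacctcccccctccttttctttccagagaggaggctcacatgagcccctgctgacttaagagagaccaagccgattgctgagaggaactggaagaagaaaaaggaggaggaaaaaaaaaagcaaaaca
Rnf43, chr10:72963116-72963415, plus strand: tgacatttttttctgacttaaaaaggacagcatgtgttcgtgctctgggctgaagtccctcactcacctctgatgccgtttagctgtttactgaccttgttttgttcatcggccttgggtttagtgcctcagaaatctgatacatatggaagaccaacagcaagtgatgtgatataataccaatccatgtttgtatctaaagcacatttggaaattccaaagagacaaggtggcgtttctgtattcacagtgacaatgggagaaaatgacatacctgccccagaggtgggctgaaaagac
Ephb2, chr5:154360375-154360674, minus strand: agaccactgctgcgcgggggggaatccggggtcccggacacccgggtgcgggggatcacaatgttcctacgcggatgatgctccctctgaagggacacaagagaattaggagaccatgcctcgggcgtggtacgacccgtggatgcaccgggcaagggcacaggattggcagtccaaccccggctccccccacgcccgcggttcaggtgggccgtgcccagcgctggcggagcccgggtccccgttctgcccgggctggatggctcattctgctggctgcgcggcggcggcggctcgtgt

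The Axin2 window held 2 matches, CTTTGAA at -232 and CTTTGAT at -132 from the start of the gene, both on the strand of the gene. The windows of Rnf43, Ephb2 and Ascl2 held none, and windows of the other 4 measured genes are not shown. Of 33469 windows of the same length in the RefSeq table, 8.73% held at least 1 match and 0.571% held 2 or more. A match describes the letters alone, and elements farther from the start lie outside these windows.

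Lgr5, the R-spondin receptor that marks the cycling crypt stem cell, had no strain difference beyond the spread between rats. The probe in the authors' table (A_64_P102796) gave log2 signals of 7.62, 6.93 and 5.81 for the congenic and 6.88, 7.43 and 6.85 for the S rats. The congenic rats thus spanned the whole range of the S rats, with C1 the highest and C3 the lowest of all. The log2 difference of -0.27 (SE 0.47, limma adjusted p = 0.788) had a 95% interval from -1.40 to 0.86, and it was -0.08 without S2 and turned to 0.22 without C3. The second Lgr5 probe (A_64_P003572), which carries the same accession, did not rise well above background anywhere. The probes therefore disagree on whether the transcript was detected, and the values of Lgr5 rest on 1 of them.

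Ascl2, the transcription factor that sets the stem cell program together with Wnt, was measured well on every array. Congenic rats had log2 signals of 9.31, 10.32 and 9.13, and S rats had 8.64, 9.71 and 9.23. C2 was the highest and S1 the lowest, and the other rats of both strains were mixed between them. The log2 difference was 0.39 (SE 0.41, limma adjusted p = 0.654; 95% interval -0.61 to 1.39), and it was 0.65 without S2, 0.02 without C2 and 0.11 without S1.

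Ephb2, the Eph receptor whose gradient holds proliferating cells in the lower crypt, had the largest difference of the 8 genes. In log2 units the congenic rats read 7.48, 7.60 and 7.00 and the S rats 5.59, 6.55 and 5.54. Every congenic rat was above every S rat, and S2 was the S rat nearest to them. The means of 7.36 ± 0.32 (SD, n = 3) and 5.89 ± 0.57 (SD, n = 3) gave a log2 difference of 1.47 (SE 0.33) or 2.77-fold, with an unadjusted p of 0.00395 and an adjusted p of 0.255 (two-sided exact permutation test, p = 0.10). Leaving out 1 rat at a time kept the log2 difference between 1.29 and 1.80, and the call was kept in 6 of 6 fits.

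Ccnd1, cyclin D1, which drives entry into the cell cycle, showed the same order of strains with a smaller difference. The log2 signals were 11.38, 11.30 and 11.02 against 10.15, 10.75 and 10.37, so that the strains did not overlap. The log2 difference was 0.81 (SE 0.22, 1.75-fold, unadjusted p = 0.0101 and limma adjusted p = 0.290). It was short of 2-fold with all rats and with each rat left out, from 0.67 to 0.97.

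Myc, the growth regulator and textbook target of beta-catenin in colorectal cancer, had nearly equal means in both strains. Congenic signals were 10.76, 11.10 and 11.18 and S signals 11.32, 10.50 and 11.21 (log2), with S2 the lowest of all and S1 and S3 the highest. The log2 difference was 0.0030 (SE 0.28, limma adjusted p = 0.996), with a 95% interval from -0.66 to 0.67, and it was -0.25 without S2.

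**Figure D1:**
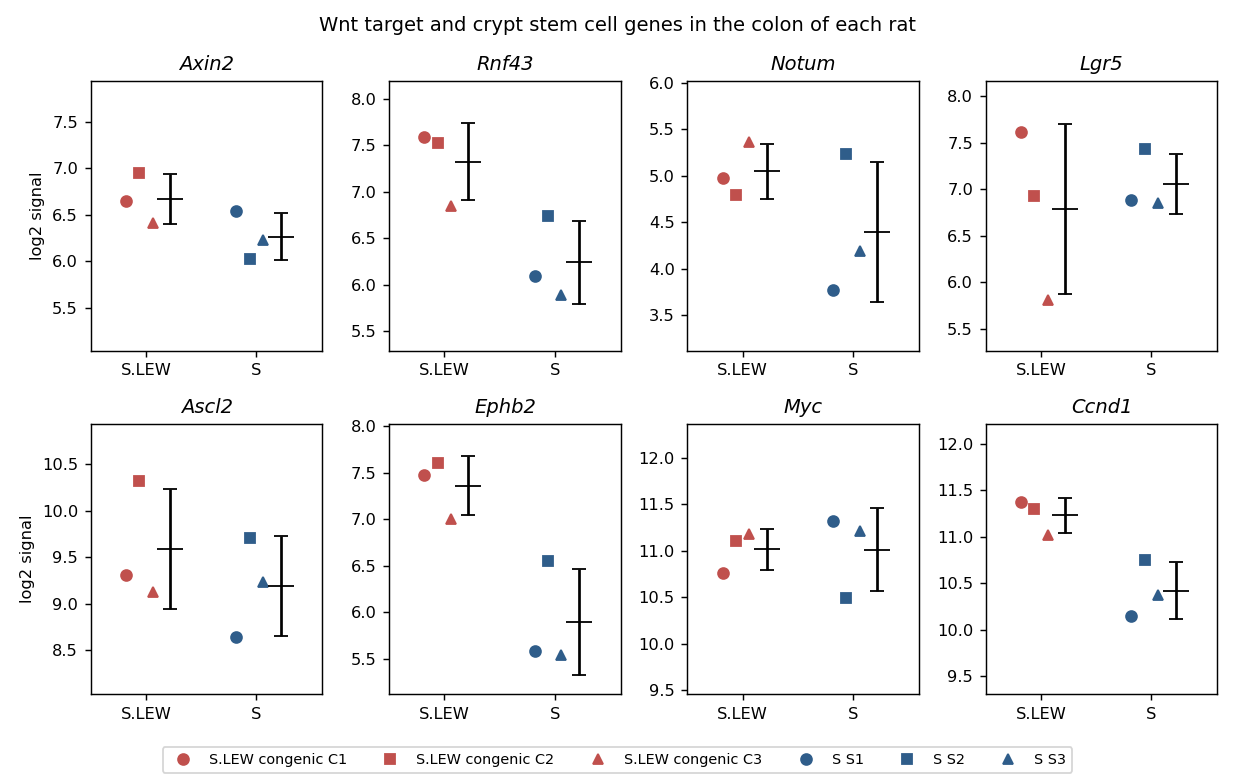
Log2 signal (vertical axis, the same span of log2 units in every panel) of the 8 measured genes in the 3 S.LEW congenic rats (red) and 3 S rats (blue), with a symbol per rat number and the mean with its SD beside them. The strains are separate for Rnf43, Ephb2 and Ccnd1 and overlap for Axin2, Notum, Lgr5, Ascl2 and Myc.

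Of the 8 genes, Rnf43 and Ephb2 (2 genes) passed the cut-offs of the study's methods, which ask for 2-fold and for p under 0.05 before adjustment, as higher in the congenic rats, and 0 passed them as lower. Over all 23997 probes limma called 3.23% as higher, 2.34% as lower and so 5.58% in all at these cut-offs. The balance of 776 higher against 562 lower turned with other scalings, to 692 against 759 after scaling to the 75th percentile and to 358 against 393 with normexp, another background correction. At an adjusted p under 0.05 none of the 8 genes was called, as was the case for all probes (0.0% in either direction), while 3 of the 8 genes had an unadjusted p under 0.05 against 13.0% of all probes (8.58% higher and 4.4% lower). The strains did not overlap at 3 of the 8 genes, in each with the congenic rats above the S rats, an order that 12.4% of all probes had, with 5.33% in the reverse order and 17.7% in either. A log2 difference above 0 was found for 7 of the 8 genes and for 51.3% of all probes. The median log2 difference was 0.53 over the 8 genes and 0.01 over all probes. With 8 genes, these counts describe the set and are not a test of it.

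Without S2, 3 of the 8 genes (Rnf43, Notum and Ephb2) passed the cut-offs as higher, where 9.99% of all probes did (7.19% as lower), and 4 of the 8 (with Ccnd1) had an adjusted p under 0.05, where 12.5% of all probes did so as higher in the congenic rats and 10.6% as lower. Axin2, Lgr5, Ascl2 and Myc did not pass in this fit either. As S2 was the S array most like the congenic arrays and was singled out for that, the calls and adjusted p-values of this fit are not a test. With normexp 0 of the 8 genes passed the cut-offs, since the log2 difference was 0.81 for Ephb2 and 0.68 for Rnf43. The arrays were read in a pair of scans, C1 with the 3 S rats in scan 1 and C2 with C3 in scan 2. Within scan 1 the log2 difference was 1.59 for Ephb2, 1.35 for Rnf43 and 0.95 for Ccnd1, each as large as with all rats, but 0.56 for Lgr5, the opposite sign. These within-scan values rest on C1 alone for the congenic strain.

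**Figure D2:**
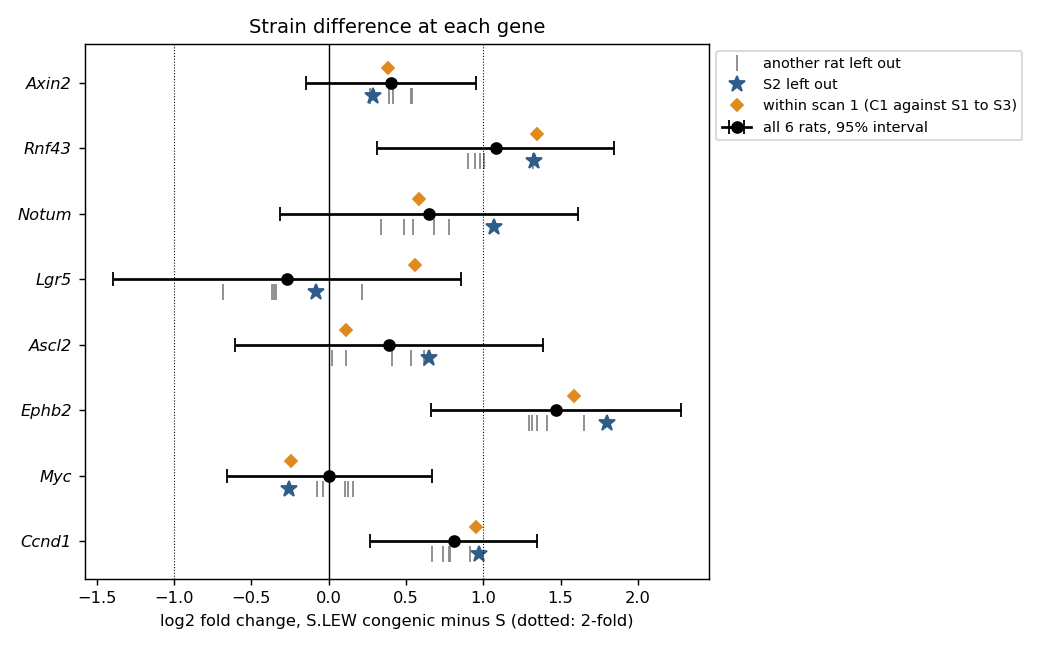
Log2 fold change of S.LEW congenic over S rats (horizontal axis) for the 8 genes on all 6 rats with its 95% interval (black), with S2 left out (star), with another rat left out (grey bars) and within scan 1 (orange). The intervals of Rnf43, Ephb2 and Ccnd1 lie above 0, and the values of Lgr5 and Myc fall on both sides of 0.

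The feedback targets were then set against the stem cell markers. For each rat the mean of Axin2, Rnf43 and Notum, each gene centred on its own mean over the 6 arrays, was 0.42, 0.43 and 0.22 for the congenic rats and -0.52, 0.01 and -0.55 for the S rats. The congenic rats were all above the S rats on this mean. The mean of Lgr5 and Ascl2 did not sort the strains, with 0.31, 0.47 and -0.69 in C1, C2 and C3 and -0.39, 0.42 and -0.11 in S1, S2 and S3.

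The difference between both means, feedback less stem, was 0.11, -0.04 and 0.90 in the congenic rats and -0.13, -0.41 and -0.44 in the S rats. Every congenic rat was above every S rat, and the strain means of 0.33 ± 0.51 (SD, n = 3) and -0.33 ± 0.17 (SD, n = 3) differed by 0.65 on the log2 scale. C3, the rat with the lowest Lgr5 signal, lay farthest from the rest, and without C3 the difference was 0.36, against 0.61 without S2. It was 0.20 with normexp. As a score over chosen genes it was not tested. The median log2 difference was 0.65 for the 3 feedback targets, 0.06 for the 2 stem cell markers and 0.81 for Ephb2, Ccnd1 and Myc.

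**Figure D3:**
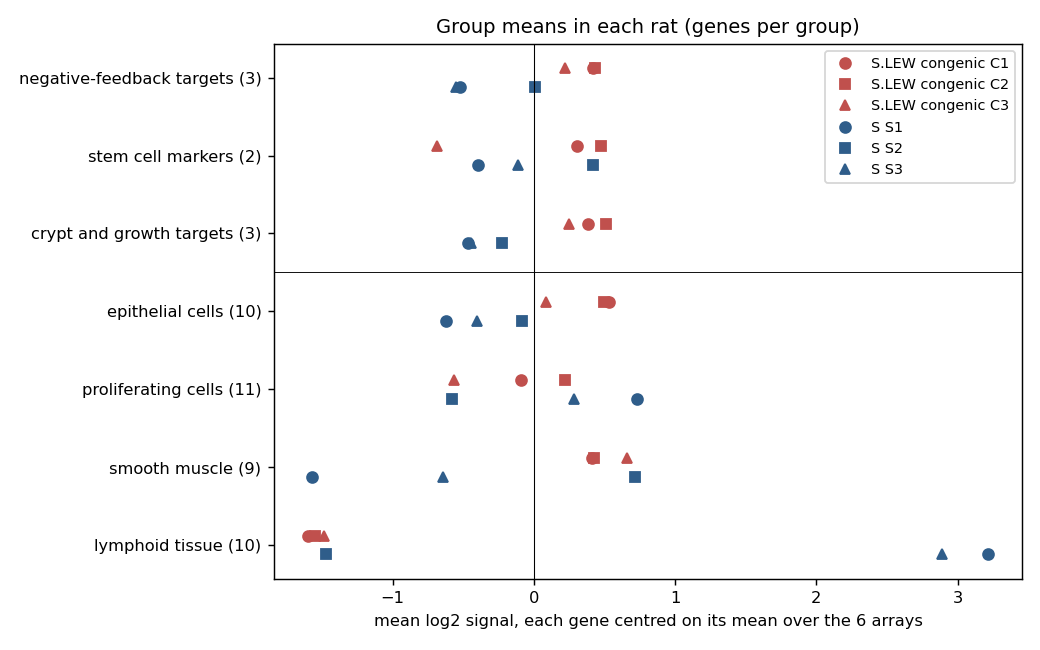
Mean log2 signal, each gene centred on its mean over the 6 arrays (horizontal axis), of the groups of Wnt target and crypt stem cell genes and of 4 marker lists, with the number of genes in parentheses and a symbol per rat (S.LEW congenic red, S blue). The feedback, crypt and growth, and epithelial means separate the strains, the stem cell means do not, and S1 and S3 stand apart on the lymphoid list.

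Because these genes are active in the epithelium, the epithelial markers were read beside them. The mean of the 10 epithelial markers was 0.09 to 0.53 in the congenic rats and -0.62 to -0.09 in the S rats, all 10 had a log2 difference above 0 (median 0.78), and 1 passed the cut-offs. The proliferation markers did not follow, with a mean of -0.57 to 0.22 in the congenic and -0.58 to 0.73 in the S rats and 2 of 11 genes above 0. Subtracting the epithelial mean of each array from every probe, which moved the median of all probes to -0.73, left Ephb2 with a log2 difference of 0.73 (SE 0.29, unadjusted p = 0.0361, limma adjusted p = 0.0998). The strains still did not overlap, with 6.92 to 7.11 against 5.94 to 6.64 after subtraction. The share of all probes without overlap on this scale is not given here, so that the order of single genes on it has no background.

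On the same epithelial scale Rnf43 had a log2 difference of 0.34 (SE 0.29), and S2 overlapped with the congenic rats. Ccnd1 had one of 0.07 (SE 0.26), with all 6 rats between 10.77 and 10.94, a narrower spread than before subtraction. Axin2 (-0.34), Notum (-0.09) and Ascl2 (-0.35) changed sign and overlapped, and Myc stood at -0.74 (SE 0.42). Lgr5 had a log2 difference of -1.01 (SE 0.38, unadjusted p = 0.0270, limma adjusted p = 0.0961), and the congenic rats (5.73 to 7.09) lay below all S rats (7.25 to 7.52). That difference stands beside the median of -0.73 over all probes on this scale. Without S2 the values on this scale were 0.92 for Ephb2 (limma adjusted p = 0.0268), 0.45 for Rnf43, 0.09 for Ccnd1, -0.96 for Lgr5 (limma adjusted p = 0.0634), -0.60 for Axin2, -0.23 for Ascl2 and -1.14 for Myc (limma adjusted p = 0.0196), Notum turned to 0.19, and the median of all probes was -0.82. The part of the epithelial share in the strain differences was not tested beyond this subtraction, which was added after the data were seen.

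**Figure D4:**
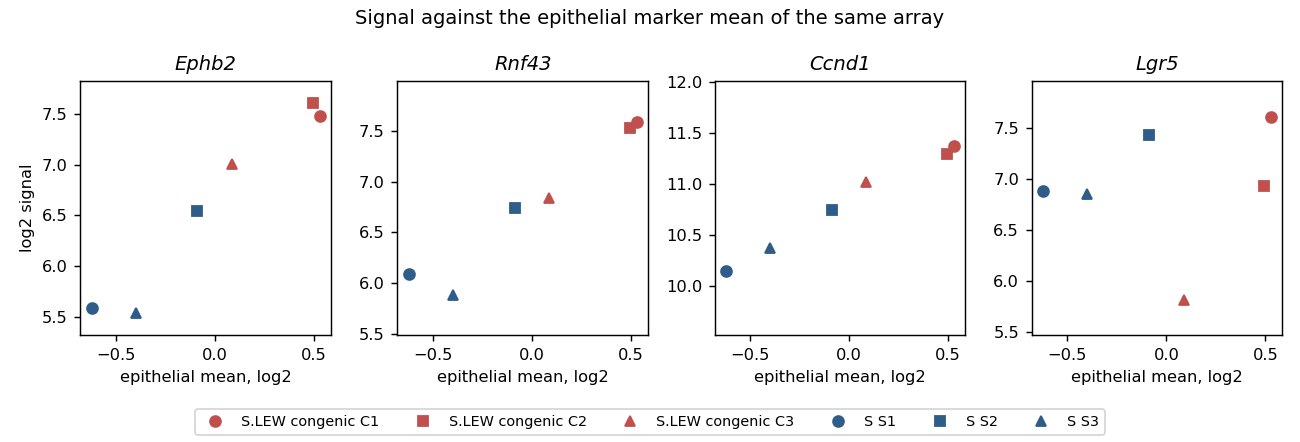
Log2 signal of Ephb2, Rnf43, Ccnd1 and Lgr5 (vertical axis) against the mean of the 10 epithelial markers of the same array (horizontal axis, log2, centred over the arrays), with 1 point per rat (S.LEW congenic red, S blue). From the highest to the lowest epithelial mean the signal of Ccnd1 falls at every rat, those of Ephb2 and Rnf43 fall with neighbouring rats exchanged, and Lgr5 shows no such order.

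The rest of the pathway was read from lists of 149 further genes, of which 103 had a tested probe, taking the brightest probe of a gene. At the cut-offs 6 of the 103 (5.83%) were called higher and 4 (3.88%) lower, beside 3.23% and 2.34% of all probes, and the median log2 difference of the 103 was 0.19. Of the 4 called lower, Wnt10a was well above background on S arrays alone and met the detection filter only through them. None of the 103 had an adjusted p under 0.05 with limma. Without S2 the counts were 25 and 7, where 9.99% of all probes were called higher and 7.19% lower. With the scan as a block, which leaves C1 as the one congenic rat behind the estimate, Dpep1 and Grem1 kept their calls, and Wnt7a, Wnt10a, Fzd8, Tle2, Slc12a2, Aldh1a1, Clu and Id3 lost theirs. The methods' t-test did not call Tle2, Clu, Grem1 or Id3.

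Among 14 ligands and secretion genes, Wnt7a was called higher and Wnt10a lower. Wnt7a read 4.96, 4.79 and 5.80 against 3.82, 4.54 and 3.86 (log2) and was well above background in 2 of the 3 congenic rats. Its log2 difference was 1.11, and 1.34 without S2, and the call was lost without C3, S1 or S3. No congenic array had Wnt10a well above background. The dimmest measurable signal of C2 (5.62) was above the Wnt10a signal of S1 and S3 (5.24 each), so C2 could not have shown a level like theirs. With the dimmest measurable signal of each congenic array as the least value there, the calculated limit was 1.26-fold lower in that strain, with no interval. This limit was 1.05-fold without C1, 1.53-fold without C2 and 1.13-fold without S2. Wnt5a, a ligand of the stroma that acts without beta-catenin, was well above background in 2 of the 3 congenic rats, had a log2 difference of 0.93 (1.29 without S2) and did not pass. The 3 tested R-spondin system genes had log2 differences of 0.05 to 0.88, the highest for the receptor Lgr4 (1.31 without S2), which did not pass.

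All 10 tested Wnt receptor genes had a log2 difference above 0 (median 0.58), 9 of 10 with scaling to the 75th percentile, although only Fzd8 passed the cut-offs. Over all probes 51.3% were above 0. Fzd5, 1 of the 10, was well above background on only 1 congenic and 2 S arrays. Beside the receptor values stand the strain differences of 0.998 for the smooth muscle mean and 0.74 for the epithelial mean, whose part in them was not tested. Fzd8 read 9.13, 8.91 and 9.67 against 8.05, 8.55 and 8.02 on the log2 scale, a log2 difference of 1.03 (SE 0.27, and 1.20 without S2), and the call was lost without C3, S1 or S3. Fzd6, at 0.84 (SE 0.29, and 1.12 without S2), also did not overlap. Fzd2, Ror2 and Ryk were low in S1 and S3 and higher in S2, the order of the smooth muscle mean. Frizzled proteins are what Rnf43 removes from the membrane.

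Of 6 secreted and surface inhibitors 0 passed. Dkk3, the largest at 0.89 (1.46 without S2), had 11.80 in S1 and 12.93 in S3 beside 14.09 in S2 and 13.82 to 13.83 in the congenic rats. Among 15 signal transduction and destruction complex genes 0 passed, and their median was 0.05, with Apc2 the largest at 1.01 (SE 0.50, and 1.53 without S2). The strains overlapped for Apc2. Ctnnb1, beta-catenin itself, was the 1 gene of this list without overlap, with the congenic rats above the S rats, an order that 12.4% of all probes had. Its log2 difference was 0.58 (SE 0.21, limma adjusted p = 0.352), and its value without S2 is not given here. In the nucleus, Tle2, a corepressor of TCF, was called higher (log2 difference 1.02, SE 0.34, and 1.38 without S2), a call lost in 4 of the 6 fits with a rat left out. Lef1 had log2 signals of 8.69 in S1 and 9.42 in S3, against 3.77 in S2 and 3.76 to 6.20 in the congenic rats, the order of the lymphoid markers, and it did not pass. It was well above background on 1 congenic array and on 2 S arrays, so that no size is given for its difference.

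Of 16 other reported Wnt targets, Dpep1 and Slc12a2 were called higher and 0 lower. Dpep1, a dipeptidase raised in colorectal tumors, read 12.06, 11.51 and 11.44 in congenic and 10.41, 9.67 and 9.46 in S rats (log2). The log2 difference was 1.83 (SE 0.32, unadjusted p = 0.000929, limma adjusted p = 0.205), and the call held in 6 of 6 fits with a rat left out, at 1.74 without S2. Slc12a2, the basolateral chloride cotransporter of crypt cells, had one of 1.05 (SE 0.28, and 1.30 without S2) and lost its call without C2, S1 or S3. Mmp7, at -1.37, rested on S1 (9.88, against 5.32 to 6.36 in the other 5 rats) and was at -0.03 without S1 and -2.28 without S2.

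Of 13 other stem and reserve cell markers, Aldh1a1 was called higher (log2 difference 1.50, SE 0.45, and 1.93 without S2) and Clu lower. Clu, a marker of revival stem cells that other cells also express, had 16.10 in S1 and 15.57 in S3 beside 12.51 in S2 and 12.01 to 12.73 in the congenic rats, the same split as the lymphoid list. Its log2 difference was -2.44 (SE 0.92) with all rats, -3.55 without S2 and -1.75 without S1, and the call was kept without S2 but lost with any other rat left out. Olfm4 had the widest spread among S rats, with 9.18, 2.47 and 4.29, beside 6.72 to 7.83 in the congenic rats. It was well above background in S1 and S3 alone among S rats, did not pass, and was at 0.49 without S2.

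In the BMP niche of the crypt, Grem1, a BMP antagonist secreted below the crypt base that favours stem cells, was called lower in the congenic rats. The congenic rats read 11.45, 12.26 and 11.52 and the S rats 12.42, 14.38 and 13.63 (log2), so that the strains did not overlap, though C2 and S1 were close. The log2 difference was -1.73 (SE 0.52, unadjusted p = 0.0141, limma adjusted p = 0.315), from -2.26 without S1 to -1.28 without S2, and the call was kept in 6 of 6 fits with a rat left out, though not with the methods' t-test. Id3, a target of BMP signaling, was called lower at -1.21 (SE 0.48), with 10.73 in S1 and 10.44 in S3 beside 8.89 in S2, inside the congenic range of 8.68 to 8.95. That call too was kept without S2 (-1.78) and lost with any other rat left out. Chrdl1, a further BMP antagonist, was low in S1 (8.31) and S3 (9.84) beside 11.38 in S2 and did not pass (log2 difference 1.05, and 1.82 without S2).

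**Figure D5:**
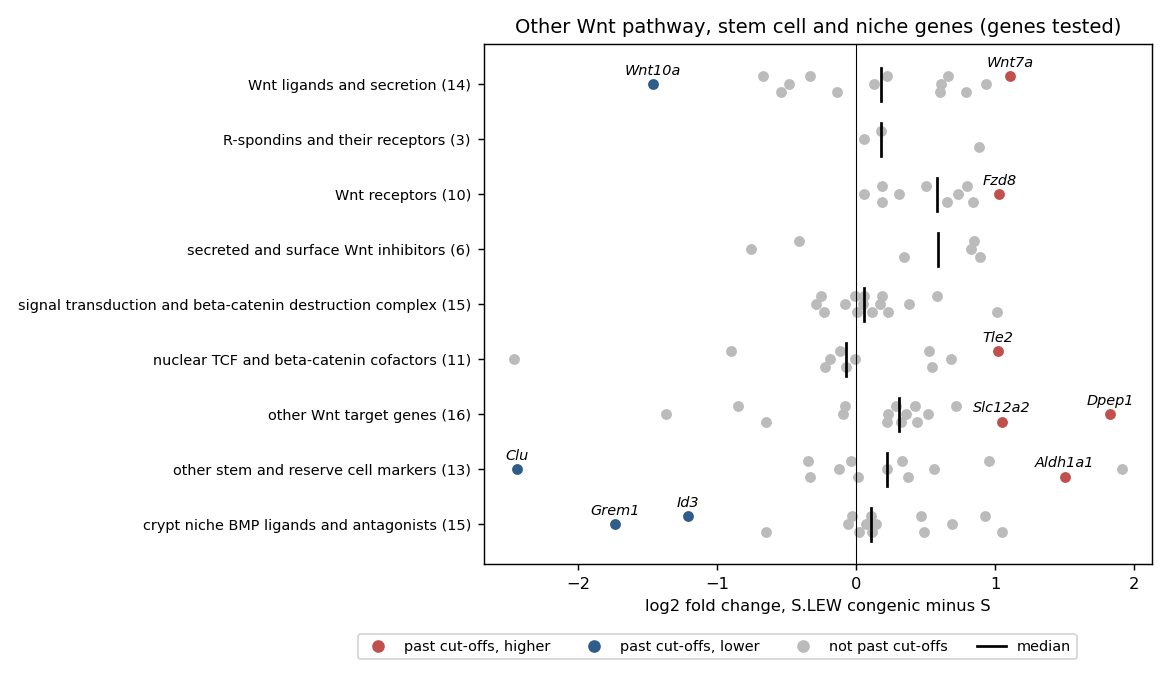
Log2 fold change of S.LEW congenic over S rats (horizontal axis) for the 103 tested genes of 9 lists, 1 point per gene with the number of genes in parentheses, those past the cut-offs named and colored (red higher, blue lower) and the list median as a black line. The 10 Wnt receptor genes all lie above 0, and the 15 destruction complex genes center near 0.

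The genes whose signals followed Lgr5 and Axin2 most closely over the 6 arrays were looked up by the root mean square distance between centred log2 values, among probes with a range at least 0.8 times that of the member. For Lgr5 the nearest of 4350 probes were Fndc11 (0.10), Or2y1h (0.11) and Or1f33 (0.13), of which Or2y1h and Or1f33 are genes of the olfactory receptor family. For Axin2 the nearest of 9812 probes were Yeats2 (0.05), Letm1 (0.06) and Hccs (0.07). With 6 arrays such distances describe these libraries alone.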

How the data were processed

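Colon RNA of 3 S.LEW congenic and 3 S rats was measured on single-color Agilent arrays, with 1 array per rat. The authors extracted the images with Feature Extraction 11.0.1.1, and the intensity values and background flags of each spot are in the deposited scanner output. GeneSpring served the authors for quantile normalization and for a filter on detection (3 or more of the 6 samples). The resulting deposited log2 values of 23997 probes are the main values here. Their scale was checked against a quantile normalization of the scanner intensity values (Pearson r at least 0.9999 on every array, median difference 0). The column medians were 8.55 to 8.57, so scale, centring and direction are known. On C1, C2 and C3, 80.9%, 73.8% and 78.5% of spots were well above background, against 86.3%, 83.2% and 87.6% on S1, S2 and S3. The dimmest signal well above background was 4.50, 5.62 and 5.01 (log2) on the congenic arrays and 3.62, 4.13 and 3.44 on the S arrays. Detection thus differed with strain, which limits the values of dim genes. With the number of arrays, detection also limits precision, and 0 spots were saturated.

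The strain term was fitted by lmFit and eBayes of limma 3.58.1 (R 4.3.3) without covariates, and p-values were adjusted by Benjamini-Hochberg over 23997 probes. A gene was called at 2-fold and p under 0.05 before adjustment, as in the methods. Each strain is 3 rats, and p-values measure the spread between these rats. Exact permutation tests were two-sided. Accessions were matched to RefSeq (GRCr8), naming 18005 of 30367 probes. The array was designed on rn4, so probes have no coordinates here, and those of promoter windows are from GRCr8. The members, the gene lists and the tests were chosen with earlier results of these data known. Named are the 8 members with a probe, and per list the genes past the cut-offs plus the largest other change, at most 4. Ctnnb1 was named outside this rule, after the data were seen. The limma script was tested on simulated data.

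Marker lists were read as means per array. Those of differentiated colonocytes, goblet, deep crypt secretory, macrophage, fibroblast, adipocyte, striated muscle and nerve markers differed between strain means by 0.73, -0.34, 0.01, -0.24, 0.30, 1.03, -1.06 and 0.53 on the log2 scale. The goblet value rests on Retnlb, well above background on the 3 S arrays alone, while 4 of the 7 goblet genes were above 0 (median 0.11). Myh1 and Mybpc1, which enter the striated muscle value, were also well above background on S arrays alone. Colonocyte genes ranged from 3.41 for Car1 to -1.00 for Aqp8, with 7 of 10 above 0. Those of deep crypt secretory cells ranged from 1.62 for Reg4 to -2.21 for Lyz2, which is also a macrophage marker here, with 5 of 8 above 0. These means thus combine genes that differed in opposite directions. Alternatives were own quantile normalization, scaling to the 75th percentile, normexp (offset 50, on the median signal since a mean signal is not used here), detection on all 6 arrays or no filter, the t-test of the methods (the methods' t-test), weighted arrays, replicate number or scan as a block, the mean over probes, and each rat left out. Normexp on the median signal, the epithelial subtraction (with and without S2), the gene lists under each scaling and the limit of Wnt10a with a rat left out were added after the data were seen. Plots were drawn with matplotlib 3.10.9.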

Additional observations from a re-analysis of the deposited data

How the results depend on the processing

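All of Rnf43, Ephb2 and Ccnd1 kept a positive log2 fold change under every alternative run. The sign of Myc turned to -0.0078 with normexp, -0.25 with the scan as a block and within scan 1, -0.19 with array weights, -0.04 without C2, -0.08 without C3, -0.25 without S2 and -0.74 with the epithelial mean subtracted. That of Lgr5 turned to 0.56 with the scan as a block and within scan 1 and to 0.22 without C3. With a rat left out Lgr5 ranged from -0.68 to 0.22 and Myc from -0.25 to 0.16. With the epithelial mean subtracted Axin2 was at -0.34, Notum at -0.0909 and Ascl2 at -0.35. The number of Wnt target and crypt stem cell genes called higher was 0 with normexp and 1 to 3 with a rat left out. Over the further pathway genes 3 were called higher with normexp, 19 with array weights, 1 with the scan as a block, 1 within scan 1 and 2 to 25 with a rat left out, and 1 lower with the methods' t-test, 2 with the scan as a block, 1 within scan 1 and 2 to 7 with a rat left out. The difference of feedback targets and stem cell markers was 0.20 with normexp and 0.36 to 0.83 with a rat left out. The methods' t-test called 2 of the 8 genes higher. The pairing check gave correlations of -0.02, -0.13 and -0.06 for rats of the same number, over deviations from the strain means. In the study each cage held 1 S and 1 congenic rat, and the labels do not say which rats shared a cage. With 3 rats per strain the correlations cannot settle whether rats of the same number were cage mates. With the replicate block 2 of the 8 genes were called higher, 794 probes higher and 744 lower.

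Over all probes, 776 were called higher and 562 lower. These counts were 358 and 393 with normexp, 692 and 759 with scaling to the 75th percentile, 515 and 178 with the methods' t-test (0 at an adjusted p under 0.05), 443 and 187 within scan 1, 2090 and 1744 with array weights, and 477 to 2397 and 192 to 1725 with a rat left out, and 341 and 227 lower with a filter on all 6 arrays and the scan as a block. At an adjusted p under 0.05 limma called 0 probes (3115 at an unadjusted p under 0.05), with 1 lower after scaling to the 75th percentile, 6950 higher and 5524 lower with array weights, whose estimation stopped before it converged, and 0 to 2999 higher and 0 to 2554 lower with a rat left out. Among the fits with a rat left out the highest counts came without S2, and the cause was not tested. Notum could not be fitted with the filter on all 6 arrays. Depth has no counterpart on these arrays, and signal over background limits Notum, Wnt5a, Wnt7a, Wnt10a, Fzd5, Lef1, Olfm4 and the second Lgr5 probe.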
